A study of Homo sapiens with 6 samples.

Results

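MYC and its dimerization partners form a small network of basic helix-loop-helix leucine zipper transcription factors, and its transcripts were examined in T98G glioblastoma cells with and without silencing of the kinase DYRK1A. The network comprised 10 genes: MYC, MAX, MXI1, MXD1, MXD3, MXD4, MNT, MGA, MLX and MLXIP. They were selected by gene symbol from the 23026 genes of the table of normalized counts, and all 10 were present. No filter on their values was applied, but the list of symbols was chosen with earlier results of these data known. T98G is an established human glioblastoma line. The shControl cells received a control short hairpin RNA (shRNA) by lentiviral transduction, and the shDYRK1A cells an shRNA against DYRK1A. All cells went through puromycin selection and a recovery period without the drug. The human cells of each condition, equal in number, received a constant amount of Kc167 cells (a Drosophila line) as a spike-in, whose reads gave an external scale. Each condition had 3 libraries, named 1A, 1B and 1C, all from this 1 line. Nothing in the labels states that they came from separate cultures, so the p-values measure the spread between these libraries, which may be technical.

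MYC binds DNA as a heterodimer with MAX, mostly at E-boxes with the core CACGTG, and activates genes for ribosome production, nucleotide synthesis and metabolism. MAX also pairs with the MXD proteins (MXD1, MXI1, MXD3 and MXD4) and with MNT, which occupy the same sites and recruit the SIN3-HDAC corepressor. It pairs as well with MGA, a subunit of the Polycomb complex PRC1.6. MLX is a second shared partner: it dimerizes with the glucose-sensing factors MLXIP (MondoA) and MLXIPL (ChREBP), and with some MXD proteins and MNT. In glioblastoma, MYC activity is linked to proliferation and self-renewal.

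Because members of the network bind the E-box, the member promoters were searched for it. RefSeq windows of 300 bases, 250 before and 50 after a transcription start (build GRCh38.p14), matched 9 of the 10 members (all but MYC) with 14 windows, since some genes have several starts. The letters CACGTG, which read the same on both strands, were in 3 of the 14 windows, those of MXD4, MNT and MLX. Of the 35116 windows of all genes, 7.26% held these letters. Counted from the RefSeq start of its window, the E-box began 238 bases upstream in MXD4, 193 in MNT and 50 in MLX. These RefSeq starts lie inside the gene spans given below. The E-boxes are therefore closer to the outer edge of each span than to the RefSeq start. The stretches around these matches are shown 5′ to 3′ on the strand of the gene, with the E-box in capitals and no annotated base of the gene included, because these are the members whose own promoters hold the recognition letters of the network. They lie at chr4:2262295-2262359 (minus strand), chr17:2401198-2401303 (minus strand) and chr17:42567000-42567067 (plus strand).
MXD4: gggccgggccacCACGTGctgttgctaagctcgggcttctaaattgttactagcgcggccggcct
MNT: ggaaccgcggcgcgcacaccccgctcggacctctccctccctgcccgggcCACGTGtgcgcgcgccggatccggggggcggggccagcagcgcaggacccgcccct
MLX: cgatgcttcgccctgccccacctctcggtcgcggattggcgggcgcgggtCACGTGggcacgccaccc
At promoters, DYRK1A is known to associate with the palindrome TCTCGCGAGA. This palindrome was in 0 of the 14 member windows and in 0.424% of all windows. A match is a description of the letters only, and no binding was measured here. As given below, transcripts of the 3 members with an E-box did not move together: MXD4 was higher relative to the other genes, and MNT and MLX were near the median.

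Gene counts summed to between 33708297 and 42154438 per library. DYRK1A itself fell from 2119 ± 194 to 1274 ± 213 normalized counts (SD, n = 3 each), a log2 fold change of -0.73 (adjusted p 5.33e-06 in edgeR's quasi-likelihood test), so that transcript remained in the silenced cells. After TMM normalization over the human genes its log2 fold change was -0.34 (edgeR adjusted p 0.000591), a fold of 0.793. Of 10 glioma and astrocyte markers, 6 exceeded 1 CPM (counts relative to the library total) on average, led by VIM at 1762 CPM and CD44 at 1517 CPM. GFAP (0.036 CPM) and SOX2 (0.013 CPM) were barely detected, and S100B and AQP4 had no counts. The summed glioma markers ranged from 3532 to 3686 CPM in shControl and from 3306 to 3395 CPM in shDYRK1A. Of 8 markers of blood, endothelial, neuronal and oligodendrocyte cells, only SYP exceeded 1 CPM, with sums of 2.97 to 4.05 CPM in shControl and 4.60 to 5.47 CPM in shDYRK1A. The part of these marker shifts in the results was not tested. Most human transcripts shifted together on the spike-in scale: the median log2 fold change over the 9697 genes tested was -0.40, and 93.6% of them lay below 0. By design the human cells were equal in number in each condition. A lower amount on this scale can reflect fewer human cells in the mix than intended or less RNA per cell, which cannot be told apart. Each member is therefore given on 2 scales. The spike-in scale divides the counts by the authors' fly-derived size factors, and the relative scale uses TMM normalization over the human genes, which sets the median near 0 (0.00).

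On the spike-in scale, 7 of the 9 members that passed the expression filter fell in shDYRK1A cells: MYC, MXI1, MXD3, MNT, MGA, MLX and MLXIP. Their folds ranged from 0.619 for MLXIP to 0.749 for MNT, and in each of the 7 every shDYRK1A library was below every shControl library. MAX and MXD4 did not pass the test, and MXD1 was under the filter, a mean normalized level above 10 CPM. Among all genes tested, 63.4% fell and 1.08% rose at an adjusted p below 0.05, and 63.6% were lower without overlap, so the share of falling members lies near what the whole transcriptome did. The median of the 9 members was -0.48. None of the 9 rose in edgeR, and the number was 0 also at an unadjusted p below 0.05 and in DESeq2. With the study's further requirement of a log2 fold change below -0.7, 0 members were called lower in either tool, where 14.3% of all genes were. Relative to the other genes, 3 members fell (MYC, MXI1 and MLXIP) and 2 rose (MAX and MXD4), beside 28.6% of all genes lower and 27.3% higher.

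**Figure D1:**
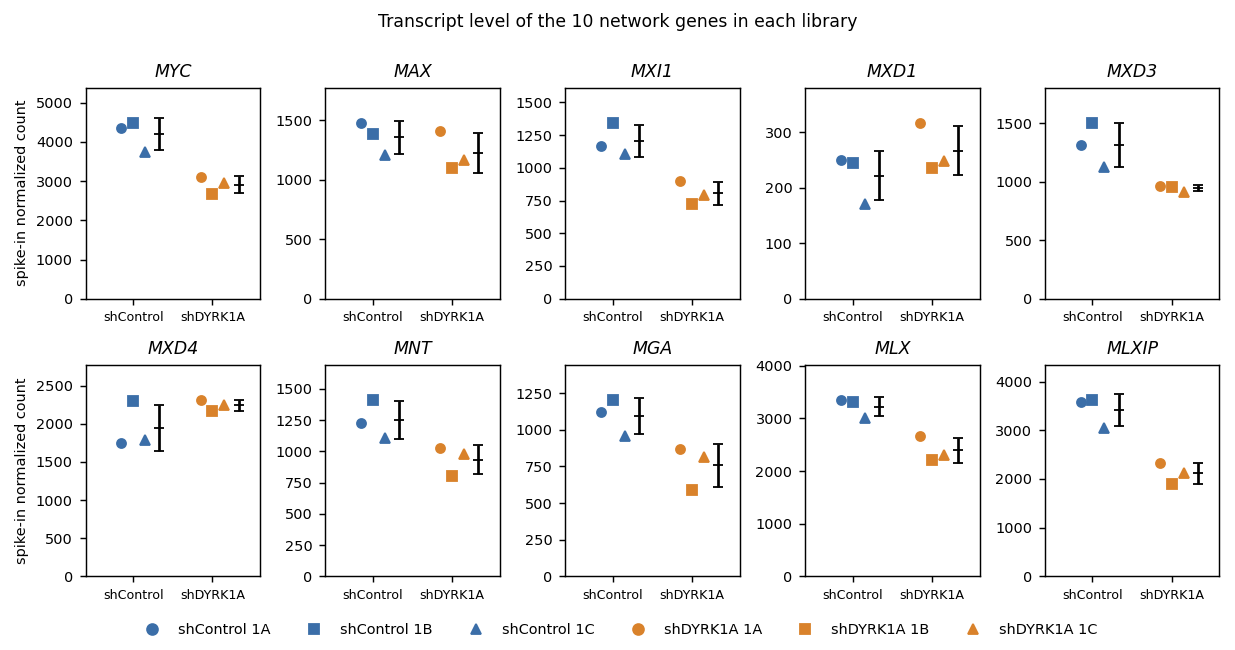
Spike-in normalized count (y axis, starting at 0) of each of the 10 genes in the 3 shControl (blue) and 3 shDYRK1A (orange) libraries, with the marker shape giving the library letter and black bars the mean ± SD. The groups do not overlap for MYC, MXI1, MXD3, MNT, MGA, MLX and MLXIP, all lower in shDYRK1A, and overlap for MAX, MXD1 and MXD4.

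MYC (ENSG00000136997, GRCh38 chromosome 8, 127735434 to 127741434, plus strand), the activator of the network, had 4364, 4489 and 3735 normalized counts in shControl 1A, 1B and 1C. In shDYRK1A 1A, 1B and 1C it had 3111, 2675 and 2949. The lowest shControl library, 1C, was still above the highest shDYRK1A library, 1A. The group levels were 4196 ± 404 and 2911 ± 220 (SD, n = 3 each). MYC fell by 0.53 on the log2 scale (standard error 0.14, 95% interval of the log2 fold change -0.80 to -0.25, edgeR adjusted p 0.000556), a fold of 0.694, and the fall passed in all 6 fits that left out one library. Most of this change was shared with the other genes. On the relative scale MYC stood at 91.7, 94.5 and 93.7 CPM in shControl and 83.2, 87.0 and 87.1 CPM in shDYRK1A, again without overlap. The relative log2 fold change was -0.12 (standard error 0.04, edgeR adjusted p 0.0323), which placed MYC at percentile 32.2 of all folds. This relative fall was small, and it no longer passed without shControl 1B (-0.11), shControl 1C (-0.12) or shDYRK1A 1A (-0.10). Its paralogs were close to absent from these cells. MYCN had 0 counts in every library, which allows at most 0.0890 CPM in the shallowest one (3 counts, counting error only). MYCL had between 7 and 15 counts per library.

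MAX (ENSG00000125952, chromosome 14, 65006174 to 65102695, minus strand), the shared partner of MYC, the MXD proteins, MNT and MGA, had 1479, 1387 and 1206 normalized counts in shControl and 1412, 1096 and 1163 in shDYRK1A. The groups overlapped, since shDYRK1A 1A exceeded shControl 1B and 1C. The log2 fold change was -0.15 on the spike-in scale (95% interval -0.44 to 0.15, edgeR adjusted p 0.372) and turned to 0.25 on the relative scale (0.12 to 0.38, edgeR adjusted p 0.00324). In relative units MAX had 31.1, 29.2 and 30.3 CPM in shControl and 37.8, 35.7 and 34.4 CPM in shDYRK1A, with every shDYRK1A library higher. The relative rise passed in all 6 fits that left out one library, with values from 0.21 to 0.28. On that scale 83.6% of the tested genes had a lower fold than MAX.

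Among the MXD repressors, MXI1 and MXD3 fell on the spike-in scale, whereas MXD4 did not pass there and rose relative to the other genes. MXD4 (ENSG00000123933, chromosome 4, 2247432 to 2262294, minus strand), known from differentiating cells, had 1745, 2299 and 1794 normalized counts in shControl and 2310, 2166 and 2251 in shDYRK1A. Library shControl 1B lay among the shDYRK1A libraries, and the other shControl libraries were lower than all of them. The log2 fold change was 0.20 (standard error 0.14, 95% interval -0.08 to 0.49, edgeR adjusted p 0.194). On the relative scale it was 0.61 (standard error 0.09, 95% interval 0.42 to 0.80, edgeR adjusted p 0.000146), a fold of 1.53. MXD4 had 36.7, 48.4 and 45.0 CPM in shControl and 61.8, 70.5 and 66.5 CPM in shDYRK1A, so that the groups were separate. Only 188 of the 9697 genes had a higher fold, and the rise passed in all 6 fits that left out one library (0.50 to 0.70).

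MXD1 (ENSG00000059728, chromosome 2, 69897688 to 69942945, plus strand), the first described MXD repressor, was the least abundant member. It had 205, 216 and 176 raw counts in shControl and 336, 255 and 301 in shDYRK1A. Every shDYRK1A library was higher in raw counts, and after spike-in scaling the groups overlapped at 222.0 ± 43.9 and 267.3 ± 44.0 normalized counts (SD, n = 3 each). Since its mean of 6.22 CPM was under the filter, MXD1 was read from the fit that kept the 17530 genes passing edgeR's filterByExpr. There its log2 fold change was 0.27 on the spike-in scale (95% interval -0.09 to 0.64, edgeR adjusted p 0.225) and 0.65 on the relative scale (0.41 to 0.89, edgeR adjusted p 0.000233). The relative rise passed in all 6 fits that left out one library, and 19.0% of the genes in this fit rose.

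MXI1 (ENSG00000119950, chromosome 10, 110207605 to 110287365, plus strand), also named MXD2, went the other way. It had 1164, 1345 and 1107 normalized counts in shControl and 897.0, 720.8 and 794.9 in shDYRK1A, and the groups did not overlap. This was a log2 fold change of -0.58 (standard error 0.15, edgeR adjusted p 0.00051), and it passed in all 6 fits that left out one library. Relative to the other genes it was -0.18 (edgeR adjusted p 0.0327). That relative call was lost without shControl 1B (-0.14), shControl 1C (-0.16), shDYRK1A 1A (-0.20) or shDYRK1A 1C (-0.18).

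MXD3 (ENSG00000213347, chromosome 5, 177301461 to 177312757, minus strand), the family member linked to S phase in cycling cells, had 1315, 1504 and 1127 normalized counts in shControl and 963.2, 952.4 and 912.6 in shDYRK1A. The shDYRK1A libraries were close together and below the lowest shControl library. MXD3 fell by 0.48 on the log2 scale (standard error 0.15, edgeR adjusted p 0.00395). The call was lost without shControl 1B (-0.37) or shDYRK1A 1C (-0.46), and the relative value was -0.07 (edgeR adjusted p 0.481). MXD3 counts are uncertain, because 18.0% of its exon length is shared with RAB24 on the same strand and 22.5% lies opposite PRELID1. The strand setting of the gene counting was not given in the sources used here.

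MNT (ENSG00000070444, chromosome 17, 2384060 to 2401118, minus strand), the repressor present in both resting and dividing cells, had 1227, 1409 and 1109 normalized counts in shControl and 1024, 806.1 and 975.2 in shDYRK1A. The groups were separate by the narrow step between shControl 1C and shDYRK1A 1A. MNT fell by 0.42 on the log2 scale (standard error 0.15, edgeR adjusted p 0.0124). This was the least stable fall of the 7, lost without shControl 1A (-0.43), shControl 1B (-0.32), shDYRK1A 1B (-0.32) or shDYRK1A 1C (-0.45). Relative to the other genes MNT stood at -0.01 (edgeR adjusted p 0.864), and 12.2% of its exon length lies opposite AC006435.1.

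MGA (ENSG00000174197, chromosome 15, 41621224 to 41773081, plus strand), a very large protein that also carries a T-box domain, had 1119, 1202 and 958.0 normalized counts in shControl and 872.4, 592.0 and 811.3 in shDYRK1A. Library shDYRK1A 1B was the lowest of the 6, and the groups did not overlap. The log2 fold change was -0.53 (standard error 0.15, edgeR adjusted p 0.0018) and passed in all 6 fits that left out one library. The relative value of -0.13 did not pass (edgeR adjusted p 0.196).

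In the arm of MLX, MLX (ENSG00000108788, chromosome 17, 42567068 to 42573239, plus strand) had 3344, 3315 and 3009 normalized counts in shControl and 2658, 2218 and 2303 in shDYRK1A, without overlap. Its log2 fold change was -0.43 (standard error 0.14, edgeR adjusted p 0.00547), lost only without shDYRK1A 1C (-0.40). The relative value was -0.03 (edgeR adjusted p 0.639), and 18.1% of the MLX exon length lies opposite PSMC3IP. MLXIP (ENSG00000175727, chromosome 12, 122078722 to 122147347, plus strand), its glucose-sensing partner, had the lowest fold of the network. It had 3589, 3618 and 3038 normalized counts in shControl and 2326, 1889 and 2123 in shDYRK1A, a gap wider than the spread within either group. The log2 fold change was -0.69 (standard error 0.14, 95% interval -0.97 to -0.41, edgeR adjusted p 8.34e-06), just short of -0.7, and passed that line without shControl 1C (-0.77) or shDYRK1A 1A (-0.77). MLXIP also fell relative to the other genes, from 75.4, 76.2 and 76.2 CPM to 62.2, 61.5 and 62.7 CPM. This log2 fold change of -0.29 (standard error 0.04, edgeR adjusted p 0.000195) passed in all 6 fits that left out one library, and 14.9% of the tested genes had a lower fold. The paralog MLXIPL had only 9 to 20 counts per library.

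**Figure D2:**
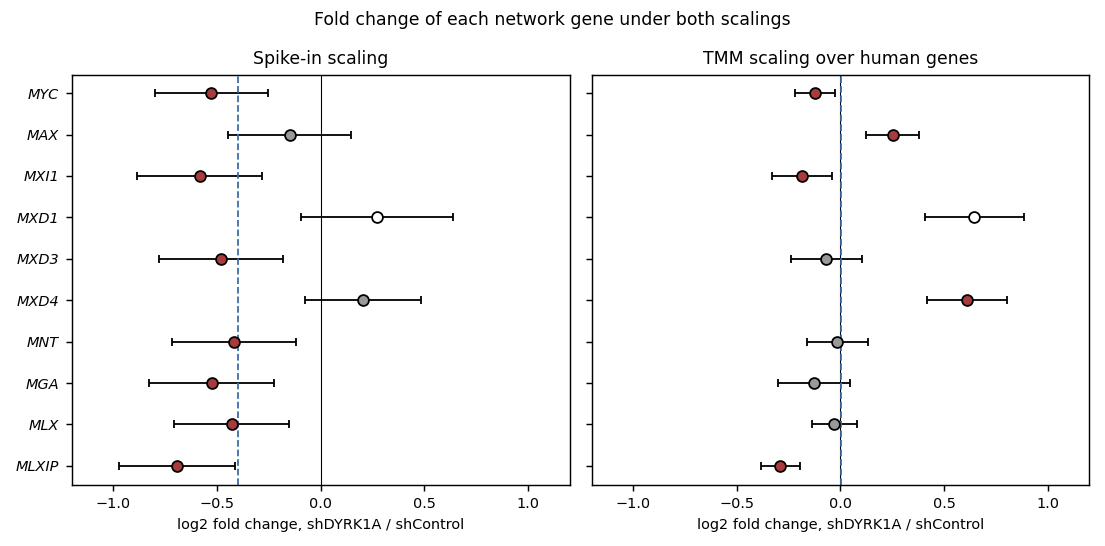
Log2 fold change (shDYRK1A over shControl, x axis) of each gene with its 95% interval, with spike-in scaling on the left and TMM scaling over human genes on the right. Red points passed an adjusted p of 0.05, grey points did not, the open point is MXD1 from the fit with filterByExpr, and the dashed line is the median of all 9697 genes. MXD4, MXD1 and MAX sit to the right of that median under both scalings, and MLXIP sits farthest to its left.

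Levels were then compared between genes per kilobase of exon, as spike-in normalized counts. In shControl cells the order ran from MYC (1398 ± 135) through MLX (757 ± 43.5), MAX (306 ± 31.3), MXD4 (276 ± 43.5), MXI1 (262 ± 26.9), MXD3 (255 ± 36.5), MLXIP (246 ± 23.5), MNT (143 ± 17.3) and MGA (61.9 ± 7.02) to MXD1 (35.0 ± 6.92), all as SD with n = 3. MYC and MLX each stood apart from their neighbours in this order, as did MNT, MGA and MXD1. From MAX to MLXIP each gene overlapped with the next in order, so these neighbours do not differ beyond their spread, although every MAX library was above every MLXIP library. In shDYRK1A cells MYC (970 ± 73.4) and MLX (562 ± 54.8) kept the first places. MXD4 (318 ± 10.3) then stood before MAX (276 ± 37.6) and was above it within each of the 3 libraries, with overlapping ranges of 307 to 327 and 247 to 319. The mean of MXD3 (183 ± 5.17) was above that of MXI1 (175 ± 19.2), but in shDYRK1A 1A MXI1 was the higher, at 195 against 187, and these genes overlapped. Exon length is the union over all annotated isoforms, so a gene of which mostly short isoforms are made is understated. Exon bases shared with other genes, such as the 18.0% of MXD3 shared with RAB24, also stay in this length. Their effect on this order and on the ratios and shares below was not tested.

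Ratios between members within a library do not depend on any size factor. The question was whether MYC transcripts changed against those of its partner and competitors. The log2 ratio of MYC to MAX, per kilobase, was 2.12, 2.26 and 2.19 in shControl and 1.70, 1.85 and 1.90 in shDYRK1A, a difference of -0.37. All shDYRK1A libraries were lower. Against the sum of MXI1, MXD1, MXD3, MXD4 and MNT, the log2 ratio of MYC was 0.64, 0.43 and 0.52 in shControl. It was 0.24, 0.20 and 0.26 in shDYRK1A, a difference of -0.30, again without overlap. Genes of this sum moved differently on the spike-in scale. The log2 fold changes of MXI1 (-0.58), MXD3 (-0.48) and MNT (-0.42) lay near that of MYC (-0.53). That of MXD4 was 0.20, and that of MXD1 was 0.27 in the fit with filterByExpr. A sum without MXD4 was not examined. MGA to MAX differed by -0.39, from -2.40, -2.20 and -2.33 to -2.69, -2.88 and -2.51. MLXIP to MLX differed by -0.26, from -1.61, -1.58 and -1.69 to -1.90, -1.94 and -1.82. These 4 ratios separated the groups, and how often ratios of other gene pairs do so was not examined. MYC to MAX and MGA to MAX share MAX, which rose on the relative scale (log2 fold change 0.25). In the two-sided exact permutation test each of the 4 ratios had p = 0.1, the smallest that 3 libraries against 3 allow (adjusted p 0.125 over the 5 ratios by exact permutation). This test therefore cannot reach 0.05 for a single ratio with these group sizes. MNT to MAX differed by -0.26 with overlapping groups (exact permutation p = 0.2, adjusted p 0.2).

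**Figure D3:**
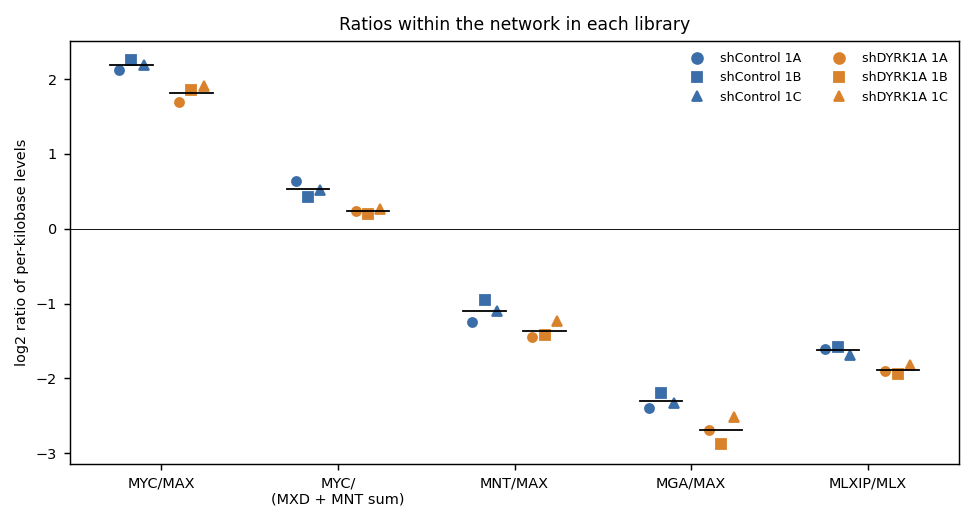
Log2 ratio of per-kilobase levels (y axis) for the 5 pairs in each library, shControl in blue and shDYRK1A in orange, with the marker shape giving the library letter and the bar the group mean. Every ratio is lower on average in shDYRK1A, and only for MNT to MAX do the libraries of the groups overlap.

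The make-up of the MXD and MNT transcript pool was described without a test, since it was chosen after the values were seen. MXD4 took 26.4, 29.4 and 29.3% of the summed per-kilobase level in shControl and 37.4, 39.5 and 38.9% in shDYRK1A. Its mean share rose by 10.2 percentage points, from 28.4 ± 1.67% to 38.6 ± 1.10% (SD, n = 3 each). MXD1, the smallest share, went from 3.60 to 5.09%. The shares of MXI1 (27.0 to 21.1%), MXD3 (26.3 to 22.2%) and MNT (14.7 to 13.0%) were lower in shDYRK1A. MXD4 was thus the largest part of the pool in every shDYRK1A library, while in shControl 1A the shares of MXD3 and MXI1 were above it.

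**Figure D4:**
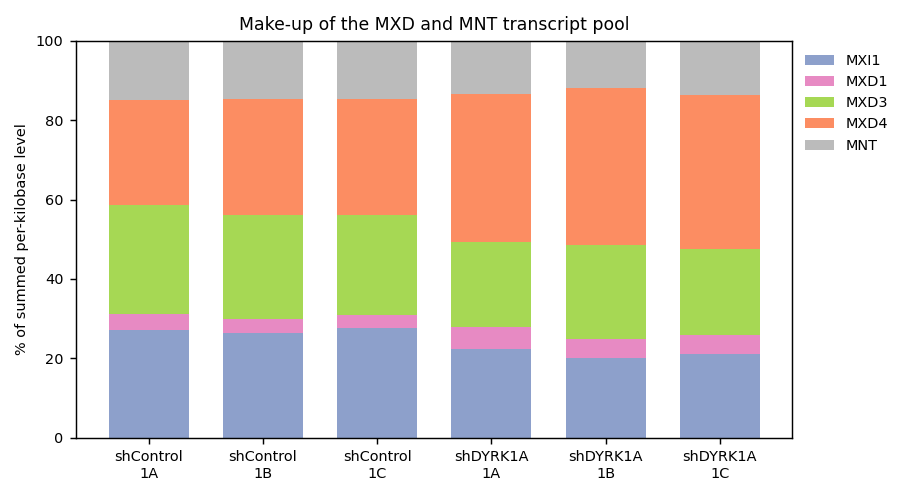
Share of each of 5 genes in the summed per-kilobase level of MXI1, MXD1, MXD3, MXD4 and MNT (y axis, percent), 1 bar per library. The MXD4 segment spans 26.4 to 29.4% in the shControl bars and 37.4 to 39.5% in the shDYRK1A bars.

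Genes around the network were then counted from lists drawn from textbook knowledge. These lists were chosen with earlier results of these data known, so their counts and medians are a description only. Of 68 genes known to be activated by MYC, such as nucleolar and nucleotide synthesis genes, 64 were tested. On the spike-in scale 58 fell, 0 rose and 6 did not pass, with 12 below -0.7 and a median of -0.57. Over all genes 63.4% fell, 1.08% rose and 14.3% were called below -0.7, with the median of -0.40. Relative to the other genes, 35 (54.7%) fell and 4 (6.25%) rose, beside 28.6% and 27.3% of all genes, with a median of -0.17 beside 0.00. The lowest was UNG, the uracil-DNA glycosylase of base excision repair, at 2902 ± 323 and 1212 ± 102 normalized counts (SD, n = 3 each), a log2 fold change of -1.26 (edgeR adjusted p 6.92e-16) and a relative one of -0.85. The highest was RCL1, which acts in rRNA processing, at -0.10 (edgeR adjusted p 0.549) and 0.31 relative to the other genes. Of 8 genes known to be repressed by MYC only 4 were tested. Among these, 2 fell, 0 rose and 2 did not pass on the spike-in scale (median -0.48). By relative fold change 2 fell and 2 rose (median -0.07). The highest and lowest of the list were CDKN1A and NDRG1. The growth arrest gene CDKN1A (p21) stood at 0.23 (edgeR adjusted p 0.141) and rose relative to the other genes by 0.64 (edgeR adjusted p 9.28e-06), while NDRG1, a stress-induced gene, fell by 0.88 and by 0.48 on the relative scale.

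The repressor machinery was described in the same way, beside the 63.4% of all genes that fell on the spike-in scale (median -0.40) and the 28.6% that fell and 27.3% that rose on the relative scale (median 0.00). Of 17 subunits of the SIN3-HDAC corepressor, 13 (76.5%) fell and 0 rose on the spike-in scale (median -0.48). On the relative scale 7 (41.2%) fell and 3 (17.6%) rose (median -0.08). The ends of the list were ING1 (-0.87, relative -0.47) and BRMS1 (-0.11, relative 0.29), both subunits of SIN3 complexes. Of 12 PRC1.6 subunits that share a complex with MGA, 11 were tested, and 9 (81.8%) fell and 0 rose on the spike-in scale (median -0.48). On the relative scale 5 (45.5%) fell and 2 (18.2%) rose (median -0.08). PCGF6, the Polycomb ring finger protein that defines this complex, had a log2 fold change of -1.15 (816 ± 99.97 to 367 ± 73.7 normalized counts, SD, n = 3 each, edgeR adjusted p 1.01e-10) and a relative one of -0.75. Its partner RING1 was at -0.07 and 0.33. The PCGF6 difference was the largest in its list on both scales, where MGA itself had -0.53 and -0.13.

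Of 12 transcriptional partners of MYC, 9 (75.0%, beside 63.4% of all genes) fell and 0 rose on the spike-in scale (median -0.39). Relative to the other genes 2 (16.7%) fell and 2 (16.7%) rose, beside 28.6% and 27.3% of all genes (median 0.01). WDR5, a chromatin adaptor that helps MYC to its sites and also belongs to PRC1.6, was lowest at -0.95 (relative -0.55), and KAT5, the TIP60 acetyltransferase, highest at -0.15 (relative 0.25). A further list held 16 kinases, ligases and other factors that set the stability of the MYC protein. Of these, 10 (62.5%, near the 63.4% of all genes) fell and 0 rose on the spike-in scale (median -0.40). Relative to the other genes 6 (37.5%) fell and 3 (18.8%) rose, beside 28.6% and 27.3% (median 0.01). AURKA, a mitotic kinase that can protect MYC proteins from degradation, was lowest at -0.81 (relative -0.41). GSK3A, a kinase that marks MYC for degradation, was highest at -0.03 (relative 0.37). These are only the ends of the list, and factors that protect MYC were not compared with those that promote its degradation. For the MLX arm, the known MLXIP targets TXNIP and ARRDC4, both arrestin-like proteins that limit glucose uptake, were read 1 by 1, and the difference between them was not tested. TXNIP was at -0.13 (edgeR adjusted p 0.377) and rose by 0.27 relative to the other genes (edgeR adjusted p 0.00206). ARRDC4 fell by 0.61 (edgeR adjusted p 0.00058), with a relative value of -0.22 (edgeR adjusted p 0.0787).

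**Figure D5:**
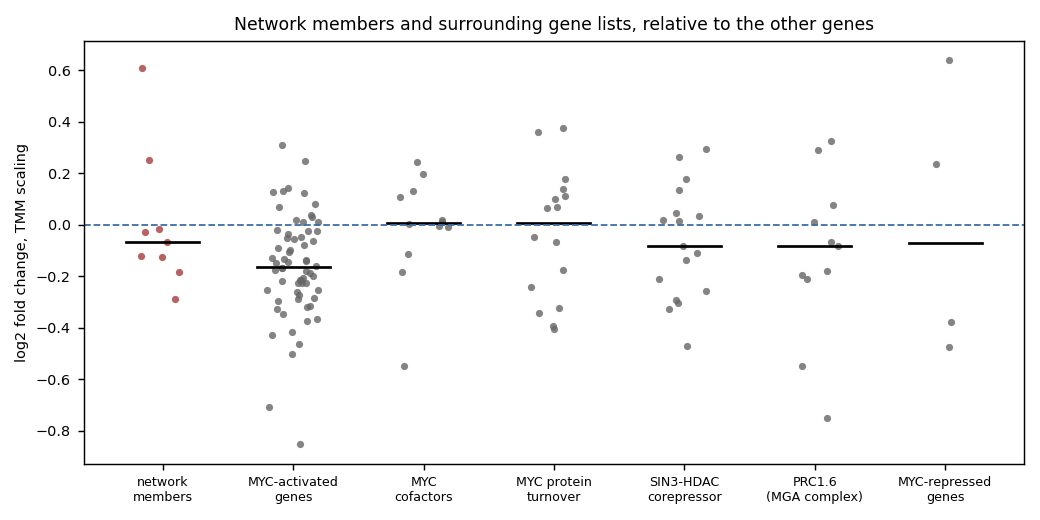
Log2 fold change relative to the other genes (TMM scaling, y axis) for the 9 tested network members (red) and the tested genes of 6 lists (grey), 1 point per gene, with a black bar at each median and a dashed line at the median of all genes. The median lies at -0.17 for the MYC-activated genes and between -0.08 and 0.01 for the other lists, and among the members MXD4 (0.61) and MAX (0.25) stand above the rest.

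Over the 6 libraries, the genes whose log2 CPM after TMM followed that of MYC most closely were NCS1, a neuronal calcium sensor (Pearson r 0.998), the zinc finger gene ZNF488 (0.996) and DISP2, a member of the Dispatched family (0.994). These are the highest values among all tested genes, the 6 points fall into 2 conditions, and the correlations are a description with no test. NCS1 had 69.5, 73.5 and 72.8 CPM in shControl and 54.0, 59.7 and 60.5 CPM in shDYRK1A. Its order within each condition was that of MYC, with 1A lowest in both conditions, and its relative log2 fold change of -0.31 was larger in size than the -0.12 of MYC.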

How the data were processed

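Messenger RNA of T98G cells was sequenced in 6 libraries, 3 shControl and 3 shDYRK1A, grouped by their titles. Per the study's methods, stranded paired-end libraries were made. STAR, DESeq2 and the builds hg38 and dm3 are named in the submitters' processing notes, and the counting settings and annotation were not given in the sources used here. The authors deposited raw counts per gene for each library (58174 gene identifiers) and a normalized signal table (23026 genes), in which each column equals the counts divided by 1 constant per library, 0.821 to 0.881 and 1.03 in shControl and 1.06 to 1.21 in shDYRK1A. These constants, derived by the authors from fly reads, served as size factors. A further deposited table holds the authors' own DESeq2 comparison, with log2 fold changes, a test score and p-values, and was not used. The number of sample columns that matched no sample was 0. Reads summarized outside genes were left out of totals and tests: unmapped reads made up 8.44 to 15.65%, multimapping reads 2.26 to 2.49%, reads without a feature 3.66 to 4.81% and ambiguous reads 3.42 to 3.59%. Coordinates of 95.71% of the genes, all 10 members included, equalled those of GENCODE 29 on GRCh38.

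Genes with a mean normalized level above 10 CPM were kept (9697). Counts were tested with edgeR 4.0.16 (glmQLFit, robust, and glmQLFTest) in R 4.3.3, with Benjamini-Hochberg adjustment over the 9697 genes. A gene passed at an adjusted p below 0.05 and was called when its log2 fold change was also above 0.7 or below -0.7. The relative scale replaced the size factors by TMM. Each standard error was obtained from the log2 fold change and the square root of its F statistic. Ratios were compared by two-sided exact permutation tests in Python 3.11.15. Lists were described by counts and medians. Alternatives were TMM, median of ratios, DESeq2 1.42.0, filterByExpr, no filter beyond 1 count, the replicate block, an adjusted p below 0.01 and each library left out in turn. On the relative scale, filterByExpr, the block, the adjusted p below 0.01 and the left-out libraries were chosen after seeing the data. The edgeR step was tested on simulated counts. Outliers were not tested, since groups held 3 libraries.

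The members and lists were chosen with earlier results of these data known. Named genes were the 10 members, DYRK1A, MYCN, MYCL, MLXIPL, TXNIP and ARRDC4, the genes with the lowest and highest spike-in fold change of each list, and the 3 genes most correlated with MYC. Since reads carried no molecular identifiers, they are not independent, and limits from counts cover counting error only.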

Additional observations from a re-analysis of the deposited data

How the results depend on the processing

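On the spike-in scale 7 members fell and 0 rose, and scaling over the human genes gave 3 lower and 2 higher with TMM and likewise 3 lower and 2 higher with median of ratios. DESeq2, filterByExpr, no filter beyond 1 count and an adjusted p below 0.01 kept the number of lower members within 1.5 times and the number of higher members at 0. Leaving out one library in turn gave 4 to 7 lower members, with 4 without shDYRK1A 1C, and 0 higher in all 6 fits. On the relative scale the 3 lower members became 1 at an adjusted p below 0.01 and 1 to 3 with one library left out (1 without shControl 1B, shControl 1C or shDYRK1A 1A), and the number of higher members was 2 in each of these fits (3 with filterByExpr, which tests MXD1). MAX turned from -0.15 to 0.25 with TMM and 0.25 with median of ratios. The relative values of MNT turned to 0.036 without shControl 1B and 0.016 without shDYRK1A 1B, and that of MLX to 0.0072 without shControl 1C, none of them past the test. With TMM and median of ratios, list medians moved to -0.17 and -0.16 for MYC-activated genes and to -0.071 and -0.068 for MYC-repressed genes. They moved to -0.084 and -0.080 for the corepressor and to -0.085 and -0.082 for PRC1.6. They turned to 0.0050 and 0.0082 for MYC partners and to 0.0080 and 0.011 for turnover factors. The median of MYC-repressed genes was -0.29 with filterByExpr and -0.31 with no filter beyond 1 count, where more of its genes were tested. A scaling over the human genes centres all folds near 0 by construction, and the cause of the other moves was not tested. The 5 within-library ratios kept their direction under every alternative run, but most of these alternatives could not have reversed them. Leaving out one library cannot reverse the 4 ratios whose groups do not overlap. The replicate block leaves each difference unchanged, as do counts not divided by exon length for ratios of 2 single genes. MNT to MAX, whose groups overlap, ranged from -0.34 to -0.19 with one library left out.

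The letters 1A to 1C are not stated to mark a shared batch. Deviations of libraries with the same letter correlated at 0.15, 0.073 and 0.13, and each shDYRK1A library correlated best with its own letter. With the letter as a replicate block, 7 members fell and 0 rose, MYC again at -0.53, and on the relative scale 3 fell and 2 rose. The 6 libraries limit the precision for MXD1, which had 176 to 336 counts per library, and for single ratios, whose exact permutation p cannot go below 0.1.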
